A study of Mus musculus with 10 samples.

Results

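The collagen genes of the deposited expression table are described here, chosen by symbol as every gene named Col, a type number, the letter a and a chain number. The rule found 44 collagen chain genes among 21101 genes. The table comes from RNA sequencing of 10 libraries of mouse neural stem cells, 1 per line and medium, which all lacked p53 and had been transduced with mutant IDH1(R132H). The 3 Atrx-deleted lines, mA16d#4, mA19d#4 and mA19d#7, and the 2 control lines, Control NSC#1 and Control NSC#2, were each sampled after 8 days in differentiation medium, made of neural basal medium and B27 without growth factors. The same 5 lines were also sampled in proliferation medium, which held EGF and bFGF at 20 ng/ml. The p53 loss and the mutant IDH1 were thus shared by control and Atrx-deleted lines, and the way Atrx was deleted is not given in the sources used here. Atrx encodes a chromatin remodeller, and the series asks by its title how it bears on neuronal differentiation. Nothing in the labels ties a line to an animal or a culture, so the p-values measure the spread between these libraries, which may be partly technical. The names mA19d#4 and mA19d#7 share a stem whose meaning is not given, so whether these lines are independent of each other is unknown.

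Collagens are extracellular proteins in which chains wind into a triple helix, and they fall into classes by the structures they build. Fibrillar collagens form fibres, FACIT collagens sit on the surface of such fibres, and type IV collagen makes the network of basement membranes. Type IV chains assemble in fixed combinations, and their genes lie in head-to-head pairs: Col4a1 with Col4a2, Col4a3 with Col4a4, and Col4a5 with Col4a6. Type IX collagen is built from the products of Col9a1, Col9a2 and Col9a3, and type XI collagen contains those of Col11a1 and Col11a2. In the brain, basement membranes line blood vessels and the meninges and also reach into the stem cell niche of the ventricle wall.

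The sequences around the starts of the 5 genes on which the results below turn were taken from RefSeq promoter windows on build GRCm38.p6, which covered 35 of the 44 genes. In GENCODE M21 the annotated starts of Col4a1 on the minus strand and Col4a2 on the plus strand, at bases 11312826 and 11312805 of chromosome 8, overlap by 22 bases. That stretch is shown because these genes were the members furthest above control in Atrx-deleted lines on the log2(TPM + 1) scale, with the overlap in capitals, at chr8:11312801-11312830 on the plus strand.
Col4a1-Col4a2: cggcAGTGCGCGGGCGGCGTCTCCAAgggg
By contrast the starts of Col4a3 and Col4a4 lie 71 bases apart on chromosome 1, and those of Col4a5 and Col4a6 lie 1308 bases apart on the X chromosome. The other 3 genes passed the test in a comparison of media or of lines. Their windows are shown 5′ to 3′ upstream of the start and outside GENCODE exons: Col9a2 at chr4:121039316-121039384 on the plus strand, Col11a2 at chr17:34038888-34039137 on the plus strand, and Col28a1 at chr6:8192618-8192867 on the minus strand. The Col9a2 window ends at the GENCODE start, 181 bases before the RefSeq start. The Col11a2 window ends at the RefSeq start, upstream of the GENCODE start at base 34039437. Capitals mark TATAAA and GGGCGG, a common Sp1 motif, on either strand, and CCAAT was searched too.
Col9a2: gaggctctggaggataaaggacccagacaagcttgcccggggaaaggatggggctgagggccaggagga
Col11a2: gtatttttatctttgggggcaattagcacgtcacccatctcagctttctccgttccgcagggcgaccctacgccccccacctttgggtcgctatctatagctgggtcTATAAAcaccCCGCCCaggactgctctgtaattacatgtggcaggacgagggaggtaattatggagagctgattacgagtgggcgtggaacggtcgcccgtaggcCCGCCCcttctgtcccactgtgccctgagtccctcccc
Col28a1: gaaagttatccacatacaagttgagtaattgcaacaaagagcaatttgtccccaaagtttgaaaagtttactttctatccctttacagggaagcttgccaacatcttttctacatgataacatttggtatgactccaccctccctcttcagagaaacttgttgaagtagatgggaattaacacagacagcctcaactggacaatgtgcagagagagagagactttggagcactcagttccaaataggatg
The Col11a2 window held 1 match to TATAAA and 2 to GGGCGG, which occur in 12.4% and 32.7% of all 32817 promoter windows cut to 250 bases. The Col28a1 window of 250 bases and the Col9a2 window of 69 bases held no match to any of the 3 motifs; CCAAT occurs in 33.8% of windows of 250 bases. In windows of 69 bases TATAAA occurs in 3.71%, GGGCGG in 6.99% and CCAAT in 9.49%. These are matches of letters and not sites of binding.

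Values are given in TPM, a relative transcript abundance scaled for transcript length. The 3 values in Atrx-deleted lines follow the order mA16d#4, mA19d#4, mA19d#7, and the 2 values in control lines follow the order Control NSC#1, Control NSC#2. All 10 libraries hold the same set of values, so depth is unknown and a change in total RNA cannot be seen. Atrx itself ranged from 47.2 to 54.4 TPM in Atrx-deleted lines against 127 to 128 TPM in control lines in differentiation medium, and from 42.8 to 74.0 TPM against 149 to 163 TPM in proliferation medium. The neural stem cell markers Sox2 and Nes were at 364 to 705 TPM and 245 to 753 TPM across the 10 libraries. The library labelled mA19d#7 in differentiation medium stood apart. Over 15660 genes it was most like the mA16d#4 library in proliferation medium, with a Spearman rho of 0.957, and its rho with mA19d#7 in proliferation medium was 0.926. Library codes in the labels have one prefix for every control library and another for every Atrx-deleted library, so a difference tied to those codes and the deletion cannot be told apart.

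Of the 44 collagen genes, 34 reached 1 TPM in at least 2 libraries and were tested, and 22 reached 1 TPM in all 10 libraries. A mean of 10 TPM or more in at least 1 group was reached by 17 genes. Fibrillar and type IV collagens together made up most of the collagen RNA, and the FACIT class took 14.9% to 28.9% of it. Type IV collagens took 21.3% to 33.6% of the summed collagen TPM in Atrx-deleted lines and 12.8% to 13.0% in control lines in differentiation medium. In proliferation medium they took 33.1% to 40.5% in Atrx-deleted lines and 21.0% to 22.9% in control lines. The type IV share was thus higher in every Atrx-deleted library than in any control library of the same medium, and Col4a1 is part of that sum. Fibrillar collagens took 31.1% to 42.9% in Atrx-deleted lines and 46.0% to 52.3% in control lines in differentiation medium, and 17.9% to 35.9% against 40.5% to 43.8% in proliferation medium. Their share was lower in every Atrx-deleted library, but it is a share of a sum that holds the type IV genes. The fibrillar TPM itself overlapped between the groups in both media, at 108 to 325 TPM in Atrx-deleted lines and 206 to 254 TPM in control lines in differentiation medium, and 111 to 231 TPM against 190 to 207 TPM in proliferation medium. The FACIT share in differentiation medium, 17.7% to 27.0% in Atrx-deleted lines and 23.1% to 28.9% in control lines, overlapped between the groups. In proliferation medium it was 17.4% to 18.9% in Atrx-deleted lines and 14.9% to 16.7% in control lines, without overlap. The FACIT TPM was 108 to 115 TPM against 64.5 to 85.4 TPM in that medium. It overlapped in differentiation medium, at 88.3 to 141 TPM against 112 to 129 TPM. The class shares were not tested.

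The summed collagen level differed less between the groups than its composition. In differentiation medium the sum was 420, 346 and 795 TPM in Atrx-deleted lines and 485 and 448 TPM in control lines. The library labelled mA19d#7 was the highest and the other 2 Atrx-deleted libraries were below both controls. The log2 difference was 0.06 (exact permutation test, two-sided p = 1), and it became -0.29 without the library labelled mA19d#7 and -0.12 when Col4a1 was left out of the sum. In proliferation medium the sum was 644, 578 and 621 TPM in Atrx-deleted lines and 512 and 434 TPM in control lines, a 1.30-fold difference on the mean log2 scale. The groups did not overlap, and the exact permutation p of 0.1 is the smallest that 3 libraries against 2 allow. When Col4a1 was left out of the sum, the log2 difference of 0.38 became 0.11 (exact permutation p = 0.4).

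**Figure D1:**
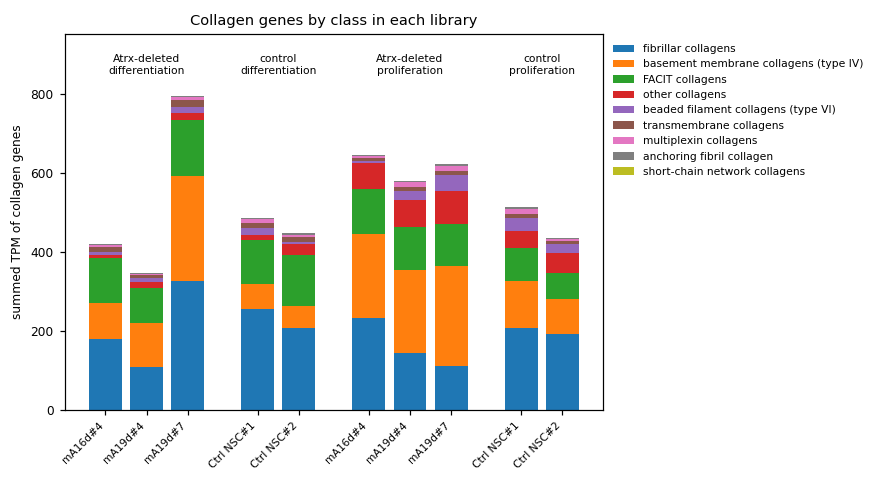
Summed TPM of the collagen genes in each library, stacked by collagen class, with Atrx-deleted and control libraries in differentiation medium and then in proliferation medium. In differentiation medium the type IV layer is at 89.5 TPM in mA16d#4, 111 TPM in mA19d#4 and 267 TPM in the library labelled mA19d#7. It is at 57.4 to 63.0 TPM in the control libraries of that medium.

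Between Atrx-deleted and control lines, Col4a1 was the collagen gene that passed the test in both media, with higher levels in Atrx-deleted lines. Col11a2 was lower in Atrx-deleted lines in differentiation medium. No other collagen gene passed in either medium. In differentiation medium 2 of 34 tested collagen genes passed limma's test at an adjusted p below 0.05, where 2.89% of all 15660 tested genes passed. In proliferation medium 1 of 34 passed, where 0.46% of all tested genes passed. With so few calls these shares are close to those of all genes in differentiation medium and rest on 1 gene in proliferation medium. Of the 34 genes 17 were higher and 17 lower in Atrx-deleted lines in differentiation medium, with a median log2 difference of 0.02, against 0.02 over all genes. In proliferation medium 24 were higher and 10 lower, with a median of 0.19, against -0.02 over all genes. Of all tested genes 51.3% were higher in Atrx-deleted lines in differentiation medium and 48.1% in proliferation medium.

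**Figure D2:**
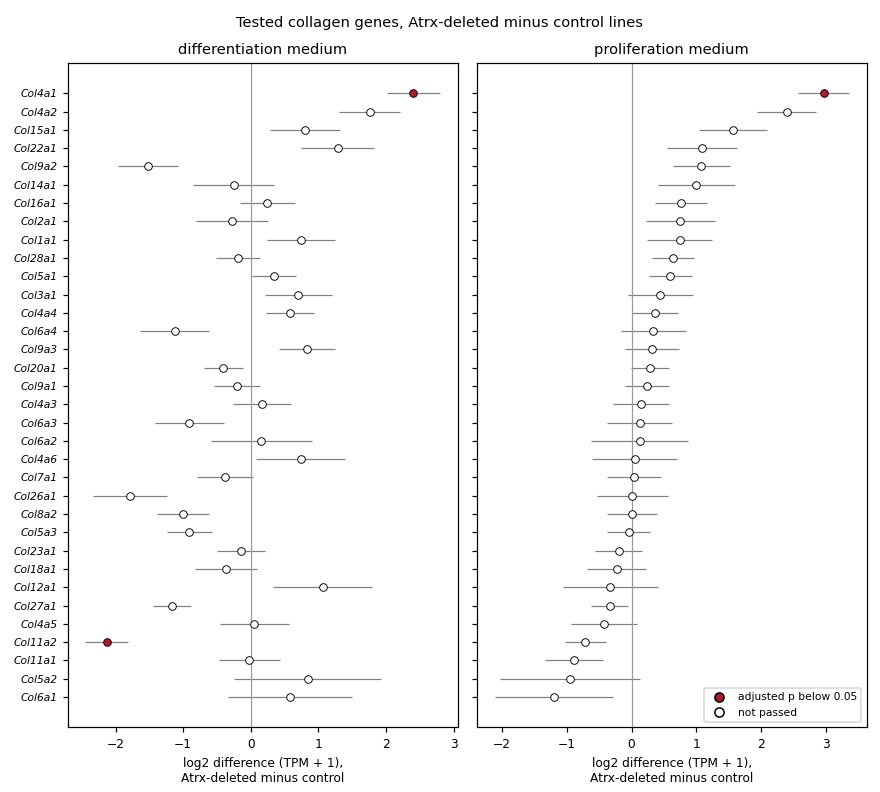
Log2 differences of TPM + 1, Atrx-deleted minus control, for the 34 tested collagen genes in differentiation medium (left) and proliferation medium (right), ordered by the proliferation value; bars are standard errors and filled points passed the adjusted p of 0.05. Col4a1 is at 2.40 and 2.97, and Col11a2 is at -2.13 and -0.72.

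Col4a1 and Col4a2 encode the chains of the type IV network found in nearly all basement membranes. In differentiation medium Col4a1 was at 37.2, 57.4 and 124 TPM in Atrx-deleted lines and at 10.2 and 12.7 TPM in control lines. In proliferation medium it was at 129, 111 and 119 TPM in Atrx-deleted lines and at 16.7 and 12.4 TPM in control lines. The groups did not overlap in either medium, and the Atrx-deleted libraries in proliferation medium lay close together. Group means were 72.9 ± 45.5 TPM (SD, n = 3) and 11.4 ± 1.79 TPM (SD, n = 2) in differentiation medium, a 6.38-fold ratio, and 120 ± 9.07 TPM and 14.5 ± 3.0 TPM in proliferation medium, an 8.23-fold ratio. Col4a1 rose by 2.40 on the log2(TPM + 1) scale in differentiation medium (SE 0.39, limma adjusted p = 0.0177) and by 2.97 in proliferation medium (SE 0.39, limma adjusted p = 0.0179).

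The Col4a1 call rested on few libraries and on the settings of the fit, although its direction did not change. It was lost in both media with no filter on low values, and in differentiation medium with the compared groups fitted alone. In differentiation medium the adjusted p was 0.179 without Control NSC#1 and 0.0933 without Control NSC#2 of that medium, and the log2 difference was 1.94 (adjusted p = 0.00902) without the library labelled mA19d#7. In proliferation medium the adjusted p was 0.241 without Control NSC#1, 0.188 without Control NSC#2, 0.0509 without mA16d#4 and 0.0722 without mA19d#4.

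Col4a2 was higher in every Atrx-deleted library than in any control library of the same medium and missed the threshold in both media. In differentiation medium it was at 9.82, 25.4 and 28.2 TPM in Atrx-deleted lines and at 3.12 and 7.75 TPM in control lines. The proliferation libraries had 30.1, 37.2 and 44.4 TPM in Atrx-deleted lines and 6.69 and 5.68 TPM in control lines. The log2 differences were 1.76 (SE 0.45, adjusted p = 0.0674) and 2.40 (SE 0.45, adjusted p = 0.0533). In the proliferation comparison Col4a2 passed, as a second collagen gene beside Col4a1, when a differentiation library of mA16d#4, mA19d#4 or mA19d#7 was left out, with adjusted p-values of 0.0265, 0.0499 and 0.0335. In the differentiation comparison it passed without mA16d#4 of that medium (log2 difference 2.21, adjusted p = 0.0190). Col4a1 was the more abundant of the pair in all libraries, 2.26 to 4.40 times Col4a2 in Atrx-deleted lines and 1.64 to 3.26 times in control lines in differentiation medium. In proliferation medium the ratio was 2.68 to 4.29 in Atrx-deleted lines and 2.19 to 2.49 in control lines. The overlap of their annotated starts shown above lies on opposite strands, and whether counting used the strand is not given in the sources used here.

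Of the other type IV genes, Col4a5 and Col4a6 overlapped between the groups. Col4a5 and Col4a6 encode chains of a network with a narrower distribution, in smooth muscle and some epithelial basement membranes. In differentiation medium Col4a5 was at 30.2, 17.6 and 79.7 TPM in Atrx-deleted lines and at 38.5 and 29.6 TPM in control lines. In proliferation medium it was at 37.6, 46.9 and 72.6 TPM in Atrx-deleted lines and at 78.4 and 59.1 TPM in control lines. The log2 differences were 0.05 (SE 0.51, adjusted p = 0.971) and -0.43 (SE 0.51, adjusted p = 0.757). Col4a6 was at 5.77, 3.24 and 30.4 TPM in Atrx-deleted lines and at 5.42 and 4.21 TPM in control lines in differentiation medium. It was at 11.5, 12.0 and 12.3 TPM in Atrx-deleted lines and at 12.9 and 10.2 TPM in control lines in proliferation medium. The high value in differentiation medium belongs to the library labelled mA19d#7 alone. Col4a3 and Col4a4, whose chains form the network of the kidney glomerulus with that of Col4a5, were low, between 0.723 and 4.45 TPM in all libraries, and neither passed in any comparison. Col4a4 was at 2.02, 3.23 and 2.24 TPM in Atrx-deleted lines and at 1.79 and 0.922 TPM in control lines in differentiation medium, and at 2.79, 2.79 and 2.42 TPM against 2.02 and 1.70 TPM in proliferation medium. It was higher in every Atrx-deleted library than in any control library of the same medium, without passing. The log2 differences were 0.58 (SE 0.35, adjusted p = 0.391) and 0.36 (SE 0.35, adjusted p = 0.702). Its values were given after they had been seen. How many of all tested genes separate the groups likewise was not counted, so the separation of Col4a4 is not read as a result.

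The proportions among type IV chains therefore differed between the lines. The ratio of Col4a1 to Col4a5 was 1.23 to 3.26 in Atrx-deleted lines and 0.264 to 0.428 in control lines in differentiation medium, and 1.64 to 3.43 against 0.210 to 0.213 in proliferation medium. Col4a1 was the higher of these 2 chains in every Atrx-deleted library and Col4a5 in every control library. As a group, 6 of 6 type IV genes had higher means on the log2 scale in Atrx-deleted lines in differentiation medium, with a median difference of 0.66, and 5 of 6 in proliferation medium, with a median of 0.25. Among these 6 genes Col4a1 alone passed. The summed TPM of 6 endothelial markers, another possible source of type IV collagen RNA, was 4.01 to 5.59 in Atrx-deleted lines and 5.52 to 6.75 in control lines in differentiation medium, and 3.54 to 6.69 against 6.35 to 7.27 in proliferation medium. Of these 6 markers Cdh5 and Cldn5 did not exceed 0.0170 and 0.0354 TPM in any library. Kdr, Tek, Pecam1 and Emcn reached 3.41, 2.89, 2.64 and 1.65 TPM. In the pericyte and smooth muscle list Pdgfrb and Rgs5 did not exceed 0.0886 and 0.0728 TPM, and Tagln and Acta2 reached 11.5 and 4.53 TPM. The 7 pericyte and smooth muscle markers summed to 29.1 to 67.8 TPM in Atrx-deleted lines and 95.2 to 98.3 TPM in control lines in differentiation medium, and to 83.5 to 110 TPM against 93.3 to 125 TPM in proliferation medium, with Notch3 at 25.6 to 120 TPM. The summed TPM of 9 fibroblast markers was higher in Atrx-deleted lines, at 29.7 to 53.1 against 27.4 to 27.7 in control lines in differentiation medium and 29.6 to 45.5 against 25.9 to 27.8 in proliferation medium. Prrx1 was the most abundant of them at 16.1 to 50.2 TPM, none of the 5 tested markers passed, Dpt and Tcf21 did not exceed 0.512 and 0.0799 TPM, and the part of these lists in the Col4a1 result was not tested. In bulk libraries fewer cells of a type and less RNA per cell cannot be told apart.

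**Figure D3:**
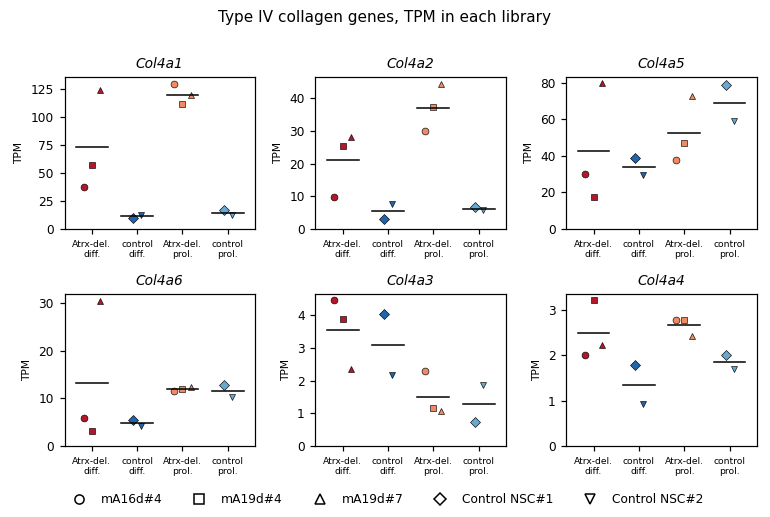
TPM of the 6 type IV collagen genes in each library, by group, on linear axes from 0; symbols mark the line and horizontal bars the group mean. The Col4a1 values of Atrx-deleted lines lie at 37.2 TPM or higher and those of control lines at 16.7 TPM or lower.

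Among the fibrillar collagens the major chains of skin, bone and tendon were nearly absent, and the RNA came from types V, XI and XXVII. Col1a1 did not exceed 4.41 TPM, Col3a1 1.98 TPM and Col1a2 0.837 TPM in any library. Col2a1, the main collagen of cartilage, ranged from 1.06 to 7.93 TPM. Col11a2, a chain of the type XI collagen that lies within cartilage fibres, differed between the lines. In differentiation medium it was at 3.86, 4.32 and 3.30 TPM in Atrx-deleted lines and at 25.5 and 15.7 TPM in control lines. Proliferating cells had 3.58, 2.57 and 3.74 TPM in Atrx-deleted lines and 6.17 and 5.85 TPM in control lines. Each Atrx-deleted library was below each control library in both media, and those of Atrx-deleted lines overlapped between the media. Col11a2 fell by 2.13 on the log2 scale in differentiation medium (SE 0.32, adjusted p = 0.0108), with means of 3.83 ± 0.510 TPM (SD, n = 3) and 20.6 ± 6.99 TPM (SD, n = 2). In proliferation medium its log2 difference was -0.72 (SE 0.32, adjusted p = 0.358). The call in differentiation medium was lost without Control NSC#1 (log2 difference -1.79, adjusted p = 0.171) or Control NSC#2 (-2.46, adjusted p = 0.0580) of that medium, and held without the library labelled mA19d#7 (-2.05, adjusted p = 0.0176).

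The partner chain gene Col11a1 was more abundant and did not pass. In differentiation medium it was at 51.4, 27.2 and 119 TPM in Atrx-deleted lines and at 60.3 and 52.1 TPM in control lines. In proliferation medium it was at 27.9, 25.6 and 26.6 TPM in Atrx-deleted lines and at 56.8 and 44.7 TPM in control lines. The groups overlapped in differentiation medium, and in proliferation medium every Atrx-deleted library was lower (log2 difference -0.89, SE 0.45, adjusted p = 0.420). The ratio of Col11a1 to Col11a2 in differentiation medium was 6.29 to 36.1 in Atrx-deleted lines and 2.36 to 3.32 in control lines. In proliferation medium it was 7.11 to 9.94 in Atrx-deleted lines and 7.63 to 9.20 in control lines, with no separation.

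Col27a1, a fibrillar collagen of cartilage and the most abundant fibrillar member by its mean in control lines after differentiation, showed the same order without passing. In differentiation medium it was at 45.2, 32.7 and 42.6 TPM in Atrx-deleted lines and at 105 and 78.0 TPM in control lines (log2 difference -1.17, SE 0.28, adjusted p = 0.0553). It passed without the mA16d#4 library of proliferation medium (adjusted p = 0.0354). The proliferation libraries had 62.6, 38.2 and 34.3 TPM in Atrx-deleted lines and 46.4 and 66.0 TPM in control lines, and the groups overlapped. Chondrocytes use types II, IX and XI. Their summed markers were 2.38 to 6.18 TPM in Atrx-deleted lines and 9.14 to 9.47 TPM in control lines in differentiation medium. Across all libraries Comp and Hapln1 did not exceed 0.885 and 0.440 TPM, and Matn1, Acan and Chad reached 3.50, 3.05 and 2.79 TPM. Pdgfra, a marker of oligodendrocyte precursors, fell by 2.11 on the log2 scale in Atrx-deleted lines in differentiation medium (adjusted p = 0.0271). The part of these markers in the Col11a2 result was not tested.

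Type V chains start and regulate fibres, and among their genes Col5a2 varied most among the Atrx-deleted lines. Col5a2 was at 48.1, 7.33 and 112 TPM in Atrx-deleted lines and at 18.3 and 19.9 TPM in control lines in differentiation medium. It was at 107, 32.1 and 7.65 TPM in Atrx-deleted lines and at 67.6 and 53.1 TPM in control lines in proliferation medium. The Atrx-deleted libraries spanned both sides of the controls in each medium, and the library labelled mA19d#7 in differentiation medium was again close to mA16d#4 in proliferation medium. Col5a1 stayed between 11.7 and 27.5 TPM in all libraries, with overlapping groups. Col5a3 was at 8.57, 8.26 and 12.6 TPM in Atrx-deleted lines and at 17.0 and 21.3 TPM in control lines in differentiation medium (log2 difference -0.91, SE 0.33, adjusted p = 0.161). In proliferation medium it was at 5.63, 8.59 and 8.31 TPM in Atrx-deleted lines and at 10.2 and 5.66 TPM in control lines, and the groups overlapped. Over the class, 4 of 9 tested fibrillar genes were higher in Atrx-deleted lines in each medium, with median log2 differences of -0.02 in differentiation medium and -0.04 in proliferation medium.

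Among the FACIT collagens Col9a2, a type IX chain gene, Col20a1 and Col22a1 separated the groups in both media, and none of them passed. Here and for the other classes, how many of all tested genes separate the groups likewise was not counted. No result is therefore read from the separation alone. Col9a2 was at 21.4, 15.0 and 11.7 TPM in Atrx-deleted lines and at 47.1 and 45.9 TPM in control lines in differentiation medium. Proliferating cells had 15.5, 7.07 and 4.76 TPM in Atrx-deleted lines and 2.29 and 4.70 TPM in control lines. The groups did not overlap in either medium, and the order was opposite in the 2 media, although 4.76 TPM in mA19d#7 and 4.70 TPM in Control NSC#2 are nearly equal. Neither difference passed (log2 difference -1.52, SE 0.45, adjusted p = 0.0965 in differentiation medium, and 1.08, SE 0.45, adjusted p = 0.326 in proliferation medium). Col9a1 was at 25.7, 15.5 and 12.6 TPM in Atrx-deleted lines and at 21.7 and 18.2 TPM in control lines in differentiation medium. It was at 15.4, 10.4 and 11.6 TPM in Atrx-deleted lines and at 13.6 and 7.83 TPM in control lines in proliferation medium, and the groups overlapped in both media.

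Col9a3, the third type IX gene, was at 26.9, 31.6 and 26.7 TPM in Atrx-deleted lines and at 8.12 and 29.0 TPM in control lines in differentiation medium. It was at 28.2, 28.6 and 33.0 TPM in Atrx-deleted lines and at 29.9 and 19.0 TPM in control lines in proliferation medium. The low value of 8.12 TPM belongs to the differentiation library of Control NSC#1 alone, and Col9a3 shares 234 bases with Tcfl5 on the other strand. The ratio of Col9a1 to Col9a2 was 1.03 to 1.20 in Atrx-deleted lines and 0.397 to 0.461 in control lines in differentiation medium, and 0.994 to 2.44 against 1.67 to 5.91 in proliferation medium. Col16a1, a FACIT collagen found near the basement membrane of skin, was at 29.2, 16.0 and 58.4 TPM in Atrx-deleted lines and at 26.0 and 24.7 TPM in control lines in differentiation medium. It was at 41.2, 36.9 and 42.5 TPM in Atrx-deleted lines and at 25.2 and 21.6 TPM in control lines in proliferation medium, where the groups did not overlap (log2 difference 0.76, SE 0.40, adjusted p = 0.440). Col20a1 was at 3.39, 4.57 and 3.89 TPM in Atrx-deleted lines and at 5.68 and 5.38 TPM in control lines in differentiation medium, and at 6.51, 5.97 and 5.23 TPM against 4.51 and 4.78 TPM in proliferation medium. Its order was thus also opposite in the media (log2 differences -0.41 and 0.29, adjusted p = 0.461 and 0.710; difference of responses -0.69, adjusted p = 0.794). Col22a1 was at 1.46, 2.29 and 5.32 TPM in Atrx-deleted lines and at 0.00552 and 1.31 TPM in control lines in differentiation medium, and at 4.49, 11.7 and 7.19 TPM against 3.53 and 2.39 TPM in proliferation medium (log2 differences 1.28 and 1.08, adjusted p = 0.221 and 0.412). Of 8 tested FACIT genes, 4 were higher in Atrx-deleted lines in differentiation medium and 7 in proliferation medium, and none passed.

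The other classes contributed less. Col28a1, a collagen with von Willebrand factor A domains known from peripheral nerve in mice, was at 8.74, 15.5 and 18.9 TPM in Atrx-deleted lines and at 11.7 and 21.4 TPM in control lines in differentiation medium. It was at 65.7, 66.4 and 81.1 TPM in Atrx-deleted lines and at 41.5 and 49.1 TPM in control lines in proliferation medium. The groups overlapped in differentiation medium, and in proliferation medium Atrx-deleted lines were higher without passing (log2 difference 0.64, SE 0.33, adjusted p = 0.423). Col6a1, a chain of the beaded filaments of type VI collagen, was at 2.31, 3.34 and 9.99 TPM in Atrx-deleted lines and at 5.98 and 0.895 TPM in control lines in differentiation medium. It was at 1.55, 9.10 and 26.3 TPM in Atrx-deleted lines and at 24.6 and 15.3 TPM in control lines in proliferation medium. The 3 Atrx-deleted lines had the same order in both media, with mA16d#4 lowest and mA19d#7 highest.

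Col23a1, a transmembrane collagen, was at 12.2, 7.80 and 18.2 TPM in Atrx-deleted lines and at 13.7 and 13.1 TPM in control lines in differentiation medium. It was at 6.87, 6.31 and 8.72 TPM in Atrx-deleted lines and at 10.7 and 6.64 TPM in control lines in proliferation medium. Col18a1, whose protein yields endostatin, lay between 2.82 and 13.4 TPM, and Col7a1, the anchoring fibril collagen of skin, between 1.74 and 4.61 TPM. Their groups overlapped in both media. Col8a2, a short-chain network collagen, was at 0.309 TPM or less in all Atrx-deleted libraries and in the control libraries of proliferation medium, and at 1.16 and 1.24 TPM in control lines in differentiation medium. It did not pass in the main fit. With no filter on low values or without a trend it passed between the lines in differentiation medium and between the media in control lines. The 14 tested genes outside the naming rule, Col4a3, Col4a4, Col1a1, Col2a1 and Col3a1 among them, had group means of at most 9.05 TPM, and the 10 genes not tested did not exceed 2.48 TPM in any library. None of the 14 passed in any comparison.

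**Figure D4:**
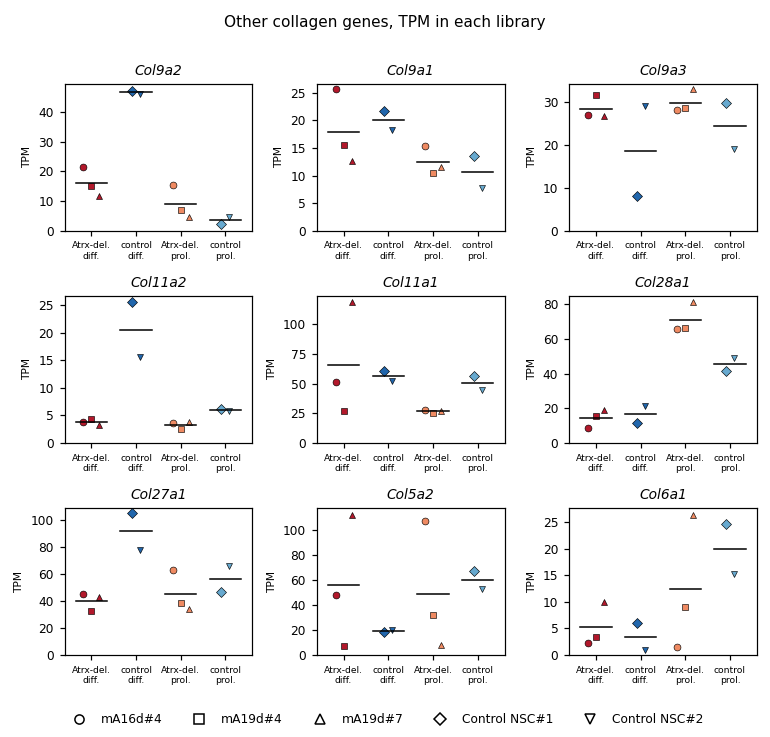
TPM of 9 further collagen genes in each library, by group, on linear axes from 0; symbols mark the line and horizontal bars the group mean. Col11a2 and Col9a2 are highest in control lines in differentiation medium, at 15.7 TPM or more and 45.9 TPM or more, and Col28a1 is at 41.5 TPM or more in every proliferation library.

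Between media, Col28a1 was lower in differentiation medium in both sets of lines, and Col9a2 and Col11a2 were higher in differentiation medium in control lines. In Atrx-deleted lines 1 of 34 tested collagen genes passed, where 0.083% of all tested genes passed, and 12 of the 34 were higher in differentiation medium, with a median log2 change of -0.25 against 0.01 over all genes. In control lines 3 of 34 passed, where 4.51% of all tested genes passed, and 20 of the 34 were higher, with a median of 0.13 against -0.01 over all genes. Of all tested genes 51.1% were higher in differentiation medium in Atrx-deleted lines and 49.2% in control lines. The lines were the same in both media, and a fit with the line as a replicate block kept 1 call in Atrx-deleted lines and 2 in control lines.

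Col28a1 fell by 2.28 on the log2 scale in Atrx-deleted lines in differentiation medium (SE 0.29, adjusted p = 0.0350, or 0.0432 with the line as a block), with means of 14.4 ± 5.17 TPM in differentiation medium and 71.1 ± 8.72 TPM in proliferation medium (SD, n = 3 each). In control lines it fell by 1.45 (SE 0.36, adjusted p = 0.0490, or 0.0416 with the block), with means of 16.6 ± 6.89 TPM and 45.3 ± 5.38 TPM (SD, n = 2 each). All 5 lines showed the fall, and the differentiation and proliferation libraries did not overlap. Both calls lay close to the threshold, and the call in control lines was lost in 12 of 20 alternatives. Among these were a pseudocount of 0.1 TPM, the log2 values as deposited, no filter on low values, no trend and median-of-ratios factors. In Atrx-deleted lines the adjusted p ranged between 0.0552 and 0.201 without any 1 of the 4 control libraries, of the 3 Atrx-deleted proliferation libraries or without mA16d#4 of differentiation medium, and it was 0.0104 without the library labelled mA19d#7. In control lines it ranged between 0.0657 and 0.303 without any 1 of the 4 control libraries or the 3 Atrx-deleted proliferation libraries.

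Col9a2 had the largest change between media on the log2(TPM + 1) scale among collagen genes in control lines, a scale that damps the change of genes near 0 TPM such as Col8a2. Its mean was 46.5 ± 0.820 TPM in differentiation medium and 3.50 ± 1.70 TPM in proliferation medium (SD, n = 2 each), a 13.3-fold ratio. It rose by 3.45 on the log2 scale (SE 0.49, adjusted p = 0.00693, or 0.0125 with the line as a block). The change within each line was 0.44 in mA16d#4, 0.99 in mA19d#4 and 1.14 in mA19d#7, against 3.87 in Control NSC#1 and 3.04 in Control NSC#2. Each of the 5 lines had the higher level in differentiation medium, and the mean change in Atrx-deleted lines was 0.86 (SE 0.40, adjusted p = 0.353). Chondrocyte markers summed to 9.14 to 9.47 TPM in differentiation medium and 3.03 to 6.82 TPM in proliferation medium in control lines, and of its 5 tested markers Matn1 rose by 2.11 (adjusted p = 0.0341); astrocyte markers summed to 2097 to 2329 TPM in differentiation medium and 960 to 1109 TPM in proliferation medium. The astrocyte marker Slc1a3 rose by 1.23 (adjusted p = 0.0370) and the stem cell marker Nes fell by 1.15 (adjusted p = 0.0262). Their lists were split, with 3 of 6 astrocyte markers and 4 of 7 stem cell markers higher in differentiation medium. Stem cell markers summed to 13106 to 13307 TPM in differentiation medium and 9853 to 10729 TPM in proliferation medium in control lines. The part of these markers in the Col9a2 result was not tested. The control call was lost without Control NSC#1 of proliferation medium (log2 change 3.06, adjusted p = 0.115) and without Control NSC#1 or Control NSC#2 of differentiation medium (adjusted p = 0.0764 and 0.0545).

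Col11a2 rose by 1.58 on the log2 scale in control lines (SE 0.35, adjusted p = 0.0331), a call that was lost with the line as a block (adjusted p = 0.0713). A pseudocount of 0.1 TPM, the log2 values as deposited or no filter on low values lost it too. Within lines the change was 0.09, 0.57 and -0.14 in the Atrx-deleted lines, against 1.89 and 1.28 in the control lines. The call was also lost without any 1 of the 4 control libraries, with adjusted p-values between 0.0827 and 0.248, and without mA19d#7 of proliferation medium (adjusted p = 0.0502). Col6a1 had the lowest log2 change in control lines, -2.49 (SE 1.01, adjusted p = 0.196, or 0.0533 with the block), with changes of -1.87 and -3.11 in the 2 lines.

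In Atrx-deleted lines the medium changes of several genes were split by line. Col5a2 changed by -1.14 in mA16d#4, -1.99 in mA19d#4 and 3.71 in mA19d#7, against -1.83 and -1.37 in the control lines. Col4a6 changed by -0.88, -1.61 and 1.24 in the same Atrx-deleted lines, against -1.11 and -1.11 in the control lines. In both genes the line with the opposite sign was mA19d#7, whose differentiation library stood apart. Col4a1 changed by -1.77, -0.94 and 0.06 in Atrx-deleted lines, with a mean of -0.88 (SE 0.35, adjusted p = 0.284), and it passed without the library labelled mA19d#7 of differentiation medium (log2 change -1.35, adjusted p = 0.0263). Its changes in control lines were -0.66 and 0.03.

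**Figure D5:**
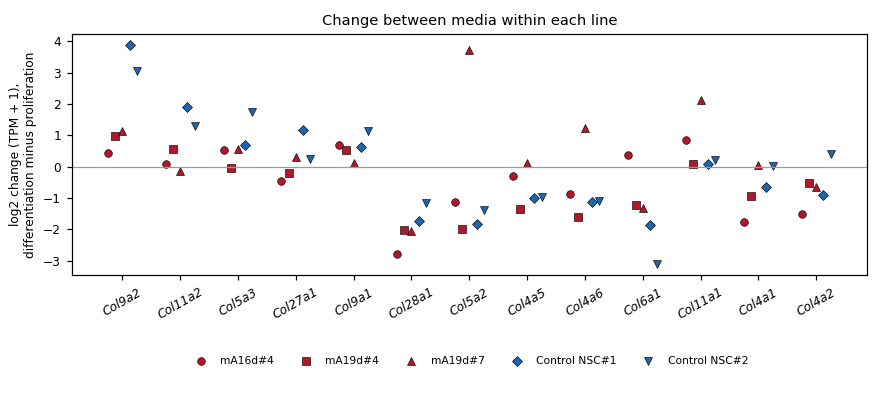
Log2 change of TPM + 1, differentiation minus proliferation medium, within each line for 13 collagen genes; red symbols are Atrx-deleted lines and blue symbols control lines. Col9a2 rises by 3.04 or more in control lines, Col28a1 is below 0 in every line, and Col5a2 is above 0 in mA19d#7 alone.

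The difference between the medium responses of Atrx-deleted and control lines was tested by an interaction term. No collagen gene passed, where 0.00639% of all tested genes, 1 of 15660, passed. At an unadjusted p below 0.05 there were 3 of 34 collagen genes, beside 1099 of all 15660 tested genes. Under each of the 19 alternatives run 0 collagen genes passed in limma. Col9a2 had the smallest p among collagen genes, with a log2 difference between responses of -2.60 (SE 0.63, unadjusted p = 0.00195, adjusted p = 0.363). Col11a2 followed at -1.41 (SE 0.45, adjusted p = 0.518). For these genes the response of Atrx-deleted lines was thus not shown to differ from that of control lines after adjustment over all genes. This comparison and the differences in each medium use the same libraries.

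Genes that make, process, bind and regulate collagen were followed in 6 lists written from general knowledge, with 85 tested genes in all. Of these 3, or 3.53%, passed between Atrx-deleted and control lines in differentiation medium, near the 2.89% of all tested genes. Between Atrx-deleted and control lines in differentiation medium 1 of 23 tested biosynthesis genes passed: Colgalt1, which adds galactose to collagen hydroxylysine. It was at 115, 107 and 119 TPM in Atrx-deleted lines and at 69.3 and 62.1 TPM in control lines, and it rose by 0.78 on the log2 scale (adjusted p = 0.0234). Of 12 tested matrix partners Tnc passed, the gene of tenascin C, a matrix glycoprotein of neural stem cell niches. It was at 42.9, 56.3 and 161 TPM in Atrx-deleted lines and at 6.31 and 9.45 TPM in control lines, a rise of 3.09 (adjusted p = 0.0177). Of 15 tested regulators Ctgf passed, which encodes a matricellular protein linked to collagen production in fibroblasts. It was at 2.07, 2.76 and 6.27 TPM in Atrx-deleted lines and at 28.4 and 29.0 TPM in control lines, and fell by 2.76 (adjusted p = 0.0232). None of 13 tested processing genes, 12 degradation genes or 10 receptors passed in that medium. In proliferation medium 0 of the 85 genes passed in limma, where 0.46% of all tested genes passed. An unadjusted p below 0.05 was held by 10 of the 85, beside 2148 of all 15660 tested genes.

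In control lines 8 of the 85 genes, or 9.41%, passed between differentiation and proliferation medium, where 4.51% of all tested genes passed. The Colgalt2 gene of the same enzyme family fell by 1.67 on the log2 scale (adjusted p = 0.0387). In the processing list Pxdn, whose enzyme cross-links type IV collagen, fell by 1.76 (adjusted p = 0.0422) and Bmp1, which cuts procollagen ends, fell by 0.95 (adjusted p = 0.0233). Pxdn stood at 44.7 and 44.7 TPM in differentiation medium and at 144 and 164 TPM in proliferation medium in these lines. Among receptors Itga1, the integrin subunit that prefers type IV collagen, fell by 2.43 (adjusted p = 0.0116), and Lair1, an inhibitory collagen receptor of immune cells, rose by 1.85 to means of 5.13 TPM in differentiation medium against 0.767 TPM in proliferation medium (adjusted p = 0.0463). Tnc fell by 3.34 (adjusted p = 0.0119). Fmod, a proteoglycan that binds collagen fibres, rose by 4.10 (adjusted p = 0.0146), and Ctgf rose by 4.64 (adjusted p = 0.00532). No gene of the degradation list passed. In Atrx-deleted lines 0 of the 85 genes passed between media in limma. At an unadjusted p below 0.05 there were 15 of the 85, beside 2319 of all 15660 tested genes. In the test of the difference between responses 0 passed, with 3 at an unadjusted p below 0.05, beside 1099 of all tested genes.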

How the data were processed

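The analysis used the deposited table of gene values, as log2 TPM per library; no sequence reads were analysed. Per the submitters' processing notes reads were aligned with STAR to mm10. For the quantifier, its annotation and its use of strand, the sources used here give nothing. Per the labels' protocols RNA was isolated with RNeasy and libraries were made with a TruSeq RNA kit. The deposited log2 values of all 10 libraries hold the same sorted set, with a lowest value of -8 held by 1213 genes, so quantile normalisation had been applied. The authors' values taken out of log2 sum to 997524 TPM per library, with 14232 genes at 1 TPM or more in each. The depth of the libraries is unknown, so counting error is not given. The design had assumed linear TPM, and values were taken out of log2 for it.

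Values as log2(TPM + 1) entered limma 3.58.1, run in R 4.3.3, with trended variance and 4 group means over the 10 libraries, which left 6 residual degrees of freedom. Fold changes on this scale understate the change of low genes. The 15660 genes reaching 1 TPM in 2 or more libraries were tested in 5 comparisons, with Benjamini-Hochberg adjustment over all of them and a threshold of 0.05. Lines recur in both media, so the line as a replicate block was an alternative. Deviations from group means of the 2 libraries of a line correlated at 0.159 for mA16d#4, 0.404 for mA19d#4, -0.194 for mA19d#7 and 0.0624 for each control line. Other alternatives were a pseudocount of 0.1, the deposited log2 values, other filters, no trend, robust estimation, the compared groups alone, median-of-ratios factors and each library left out. The fit was tested on simulated data.

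Collagen genes were given library values if they passed a test, had a group mean of at least 10 TPM or led their class; Col4a3, Col4a4, Col1a1, Col1a2, Col2a1 and Col3a1 were added by range, and Col4a4, Col20a1 and Col22a1 with values, chosen after these were seen. Listed genes were named if they passed, except that 1 result is not reported here. Members and lists were chosen with earlier results of these data known. Positions are from GENCODE M21.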

Additional observations from a re-analysis of the deposited data

How the results depend on the processing

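Of the gene results followed, 7 past the threshold and 26 that missed it, none changed direction under the alternatives run. For the 7, 90 of 137 alternative values kept the call and 47 lost it; for the 26, 14 of 495 alternative values passed. The count of collagen genes past the threshold moved with the choices. For Atrx-deleted against control lines in proliferation medium it was 1, and 0 with no filter on low values, 2 with robust estimation, 2 with the compared groups fitted alone and 0 to 2 with a library left out. In differentiation medium it was 2, and 0 with the compared groups fitted alone and 0 to 3 with a library left out. For the media in Atrx-deleted lines it was 1, and 0 with no filter, without a trend or with the compared groups alone, and 0 to 2 with a library left out. In control lines it was 3, and 1 with a pseudocount of 0.1 TPM, 1 with the log2 values as deposited, 8 with the compared groups alone and 0 to 3 with a library left out. With the line as a replicate block these paired comparisons gave 1 call in Atrx-deleted lines and 2 in control lines, and the Col11a2 call was the one lost. The difference of responses gave 0 throughout. The genes past the threshold moved too. For Atrx-deleted against control lines in differentiation medium they were Col11a2 and Col8a2 with no filter, and Col11a2, Col4a1 and Col8a2 without a trend. Log2 differences of Col4a1 ranged from 1.94 to 2.79 in differentiation medium and from 2.77 to 3.17 in proliferation medium, those of Col11a2 in differentiation medium from -2.46 to -1.79. The summed collagen TPM in differentiation medium changed sign, at -0.115 without Col4a1 and at -0.291 without both libraries of mA19d#7, an alternative added after seeing the data, and ranged from -0.291 to 0.309 with a library left out. The causes of these shifts were not tested. Quantile-normalised values hide differences in depth and in total RNA, and no group had more than 3 libraries.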

Other observations

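The neighbours of the Col4a1 and Col4a2 pair were inspected after the values of the pair had been seen. Within 1 Mb on either side on chromosome 8, 13 further genes were tested, and limma called 0 of them in differentiation medium and 0 in proliferation medium. Of all tested genes 2.89% and 0.46% were called in these media. With shares this low, 0 of 13 does not show that the neighbours were unchanged. Their log2 differences, Atrx-deleted minus control, ranged from -0.74 to 1.59 in differentiation medium and from -0.997 to 2.35 in proliferation medium, with medians of 0.26 and 0.22. The highest value in both media belonged to Sox1, a transcription factor gene of neural progenitors, at 1.59 (adjusted p = 0.0923) and 2.35 (adjusted p = 0.0618). Of the 13 genes 10 and 9 were higher in Atrx-deleted lines in differentiation and proliferation medium, beside 51.3% and 48.1% of all tested genes.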
